A study of Tupaia belangeri chinensis with 36 samples.

Results

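The features described here are 158 annotated transcribed units of the fetal cortex of the Chinese tree shrew (Tupaia belangeri chinensis) whose level fell at every step from the ventricular surface outward at embryonic day 28 (E28). They were chosen by their own E28 values, so the E28 profile is a description and E37 and E42 carry the tests. The layers were, from the ventricle outward, the ventricular zone (VZ), the inner and the outer subventricular zone (ISVZ and OSVZ), the intermediate zone (IZ) and the cortical plate (CP). Levels are given as CPM, the counts of a feature per 1000000 counts on all features of the library. A feature with a TSDBGID identifier was kept when its E28 mean was at least 10 CPM in the VZ and each layer's mean was at least 1.5 times that of the next. The 158 features made up 0.751% of the 21043 TSDBGID features, and 1.98% of the 7989 that reached 10 CPM in the E28 VZ. TSDBGID features were taken here as the coding genes, since the rest of the annotation is named LINC-, -AS- or NA-, but the count tables do not state which features code for protein.

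The cortex of a fetal mammal is layered by birth and by migration. The VZ lines the ventricle and holds radial glia, the stem cells of the cortex, which divide at the ventricular surface and send a long fibre to the brain surface. Their daughters include intermediate progenitors and outer radial glia, which divide in the ISVZ and OSVZ, and newborn neurons then cross the IZ along the radial fibres and settle in the CP under the marginal zone (MZ), a layer that holds early-born neurons, the end feet of radial glia and vessels of the overlying tissue. The identifiers carry no gene symbols, 0 of the 158 were found in the RefSeq table used here, and the layers could not be checked against known markers, so features are given by identifier and no role is assigned to a single one.

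The labels give no genotype, strain or treatment for the fetuses, so stage and layer are the only factors. Layers were cut by laser microdissection from frozen, Nissl-stained sections, and polyadenylated RNA was sequenced. E28 was covered by 2 libraries for each of these layers and for the MZ. E37 had 3 libraries for the IZ, 2 for the MZ and 1 for an undivided CP, plus 2 for each of its inner (CPi) and outer (CPo) parts. E42 had 2 for the ISVZ, the OSVZ, the IZ, either part of the CP, and the MZ. The table labelled as replicate 2 of the E42 VZ was identical to replicate 2 of the E28 VZ in all 76871 features and was left out, so 35 distinct libraries remained and the E42 VZ rests on 1. A library held between 17932690 and 102042743 counts on features. The layers hold mixtures of cells, and in such bulk samples fewer cells of a type and less RNA per cell cannot be told apart.

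The share of a library's counts that fell on the 158 features is shown first. At E28, they held 3.60% and 3.60% of the counts of the VZ libraries, 1.69% and 1.91% in the ISVZ, and 0.651% and 0.533% in the OSVZ. They held 0.254% and 0.266% in the IZ, and 0.0896% and 0.0766% in the CP. No replicate of one of these layers reached the level of the next layer inward, which is the order that the choice of features fixed. At E42, the VZ library held 3.47%. The other layers held 1.08% to 1.15% (ISVZ), 1.20% to 1.31% (OSVZ), 0.520% to 0.553% (IZ), 0.218% to 0.244% (CPi) and 0.180% to 0.210% (CPo). Both E42 OSVZ libraries lay above both ISVZ libraries, whereas at E28 both lay below. The E37 libraries held 0.221% to 0.254% in the IZ, 0.121% to 0.148% in the CP and its parts, and 0.341% to 0.391% in the MZ.

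**Figure D1:**
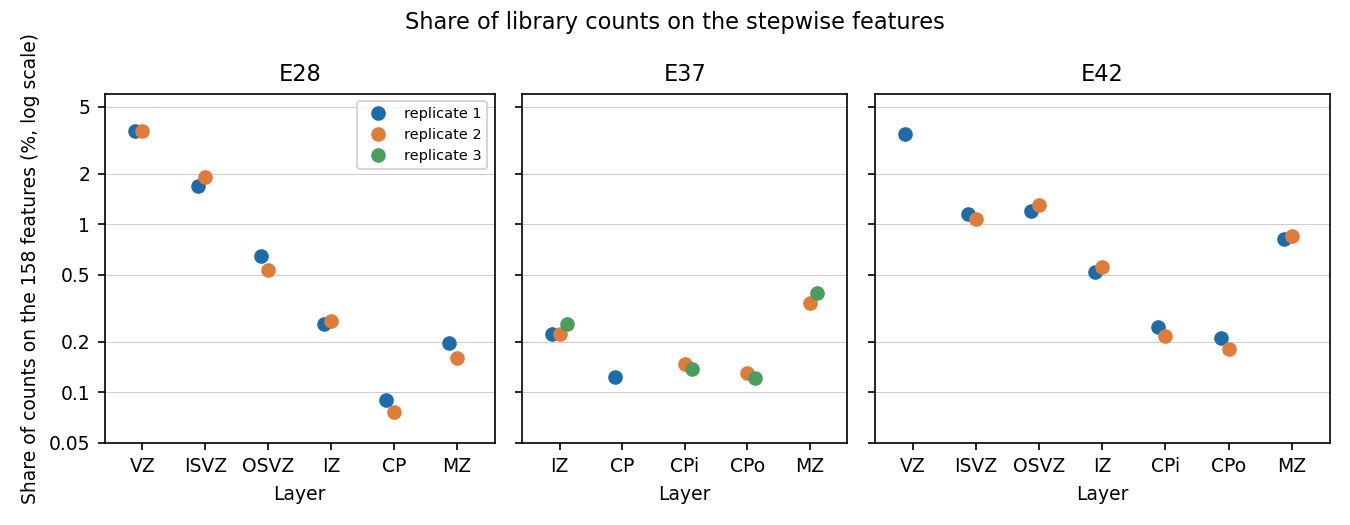
Share of each library's counts that fell on the 158 features (percent, log scale) by layer, in 1 panel per stage, with 1 point per library coloured by replicate number. At E28 the share fell from 3.60% in the VZ to 0.0766% and 0.0896% in the CP, at E42 the ISVZ and OSVZ were close together, and the MZ lay above the CP at each stage.

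At E28, the median level of the 158 features was 119.9 CPM in the VZ, 63.7 in the ISVZ, 19.9 in the OSVZ, 8.21 in the IZ and 1.15 in the CP. The steps were unequal, with median ratios of 1.98 from VZ to ISVZ, 3.08 from ISVZ to OSVZ, 2.45 from OSVZ to IZ and 4.79 from IZ to CP. The step from IZ to CP was the largest in 101 features, that from ISVZ to OSVZ in 40, that from VZ to ISVZ in 10 and that from OSVZ to IZ in 7. The median ratio of VZ to CP was 77.4, with the 10 features that had fewer than 3 counts over both CP libraries set to 3 counts over the group. Within single replicates, the order of the 5 layers held for 155 features in replicate 1, for 156 in replicate 2 and for 153 in both, while the full 1.5-times rule held for 127 and 109.

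The rule set a sharp line through a continuous range. Just inside were TSDBGID.26509, whose smallest step was 1.504 (OSVZ to IZ), TSDBGID.19804 with 1.506 (VZ to ISVZ), TSDBGID.8740 with 1.509 (OSVZ to IZ) and TSDBGID.1133 with 1.511 (IZ to CP). Just outside were TSDBGID.12152, TSDBGID.12080, TSDBGID.4750 and TSDBGID.9450, whose smallest steps, all from VZ to ISVZ, were 1.499, 1.494, 1.494 and 1.494. TSDBGID.4750, for example, fell from a mean of 111 CPM in the E28 VZ through 74.6, 15.5 and 6.79 to 0.407 in the CP, and is not among the 158. A further 697 TSDBGID features fell by at least 5.062 times from VZ to CP at E28 (the product of the 4 minimal steps). They did not fall by 1.5 times at each step, and they serve below for comparison. The 697 were not matched for the size of the fall to the 158, whose median ratio of VZ to CP was 77.4. In these comparisons the size and the evenness of the fall cannot be told apart.

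The most abundant of the features in the E28 VZ was TSDBGID.13672. It stood at 3541 and 3453 CPM in the VZ, 2142 and 1899 in the ISVZ and 833 and 458 in the OSVZ. The IZ held 387 and 317 CPM and the CP 124 and 112. At E42, it stood at 2777 CPM in the VZ, 528 and 541 in the ISVZ and 792 and 468 in the OSVZ. The IZ held 185 and 193 CPM, the CPi 115 and 96.6 and the CPo 84.3 and 70.6. The VZ was far above every other layer at E42 too, but the ISVZ values lay inside the range of the OSVZ values. On the log2 scale, the E42 VZ exceeded the ISVZ by 2.44 ± 0.30 (SE, adjusted p = 4.13e-06) and the CP by 4.77 ± 0.25 (SE, adjusted p = 3.15e-14). These values come from edgeR's quasi-likelihood test with Benjamini-Hochberg adjustment over all 26858 features tested, which was used for all calls that follow.

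TSDBGID.13274 was the next most abundant, with 2237 and 2561 CPM in the VZ, 592 and 913 in the ISVZ, 123 and 70.1 in the OSVZ, 29.3 and 27.8 in the IZ and 16.0 and 6.78 in the CP. At E42, the VZ stood at 2235 CPM, close to the lower E28 value, but the OSVZ, IZ and CP were higher than at E28, with 610.4 and 566 in the ISVZ and 719 and 899.8 in the OSVZ. The IZ held 246 and 208 CPM, the CPi 93.1 and 94.2 and the CPo 72.9 and 73.8. Both E42 OSVZ libraries lay above both ISVZ libraries, the reverse of E28. The E42 VZ exceeded the CP by 4.58 ± 0.47 (SE, adjusted p = 3.33e-07) on the log2 scale.

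TSDBGID.10937 had another profile at E42. It went from 1039 and 921 CPM in the E28 VZ to 643 and 592 in the ISVZ. The OSVZ held 247 and 202, the IZ 80.7 and 83.3 and the CP 8.86 and 4.81. At E42, the VZ held only 131 CPM and the ISVZ 215 and 260.3. The OSVZ held 105 and 136, the IZ 46.6 and 42.9, the CPi 20.6 and 12.9 and the CPo 13.4 and 8.48. Both ISVZ libraries were above the VZ library, although the log2 difference of VZ and ISVZ, -0.80 ± 0.50 (SE, adjusted p = 0.437), did not pass the test. The VZ still exceeded the CP by 3.11 ± 0.38 (SE, adjusted p = 2.06e-06).

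The other 5 of the 8 most abundant features differed in whether the E42 VZ stayed above the ISVZ mean. TSDBGID.10296 and TSDBGID.6314 stood at means of 823 and 681 CPM in the E28 VZ and at 894 and 1782 in the E42 VZ. Their E42 OSVZ mean was above that of the ISVZ (446 against 306, and 706 against 498). For TSDBGID.6314, the CP mean was 3.27 CPM at E28 and 156 at E42, and its E42 VZ exceeded the CP by 3.37 ± 0.55 (SE, adjusted p = 0.000102) on the log2 scale. TSDBGID.16963 and TSDBGID.15828 had an E42 ISVZ mean slightly above the VZ (361 against 315, and 311 against 305), after VZ means of 1057 and 643 CPM at E28. For TSDBGID.15828, the VZ library lay between the ISVZ libraries (282 and 340 CPM). For TSDBGID.16963, the E42 difference of VZ and CP was 1.69 ± 0.17 (SE, adjusted p = 3.15e-09), smaller than for the other abundant features named. TSDBGID.11327 kept its VZ peak, from 713 CPM at E28 to 520.4 at E42, where the VZ exceeded the ISVZ by 2.28 ± 0.28 (SE, adjusted p = 2.89e-06).

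The steepest falls at E28 were read among features with at least 3 counts in each CP library. TSDBGID.20993 went from 366 and 459 CPM in the VZ through 163 and 232 (ISVZ), 40.6 and 38.4 (OSVZ) and 8.52 and 12.5 (IZ) to 0.779 and 0.154 in the CP. The ratio of the VZ to the CP mean was 884. Next came TSDBGID.12085 with a ratio of 759, TSDBGID.5705 with 563, TSDBGID.14582 with 526, TSDBGID.11622 with 485 and TSDBGID.4536 with 460.2. In 5 of these 6 the CP mean was higher at E42 than at E28. The ratio of VZ to CP at E42 was 61.8 for TSDBGID.20993, 48.3 for TSDBGID.12085, 37.1 for TSDBGID.14582, 71.2 for TSDBGID.11622 and 21.9 for TSDBGID.4536. The E42 VZ exceeded the CP by 5.79 ± 0.47 (SE, adjusted p = 9.27e-09) on the log2 scale for TSDBGID.20993 and by 6.00 ± 0.59 (SE, adjusted p = 2.32e-07) for TSDBGID.11622. TSDBGID.5705 was the exception, listed at 0 in 3 of the 4 E42 CPi and CPo libraries. It had 93.6 CPM in the VZ, 15.0 and 7.32 in the ISVZ, 21.0 and 13.3 in the OSVZ and 2.46 and 0.915 in the IZ.

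**Figure D2:**
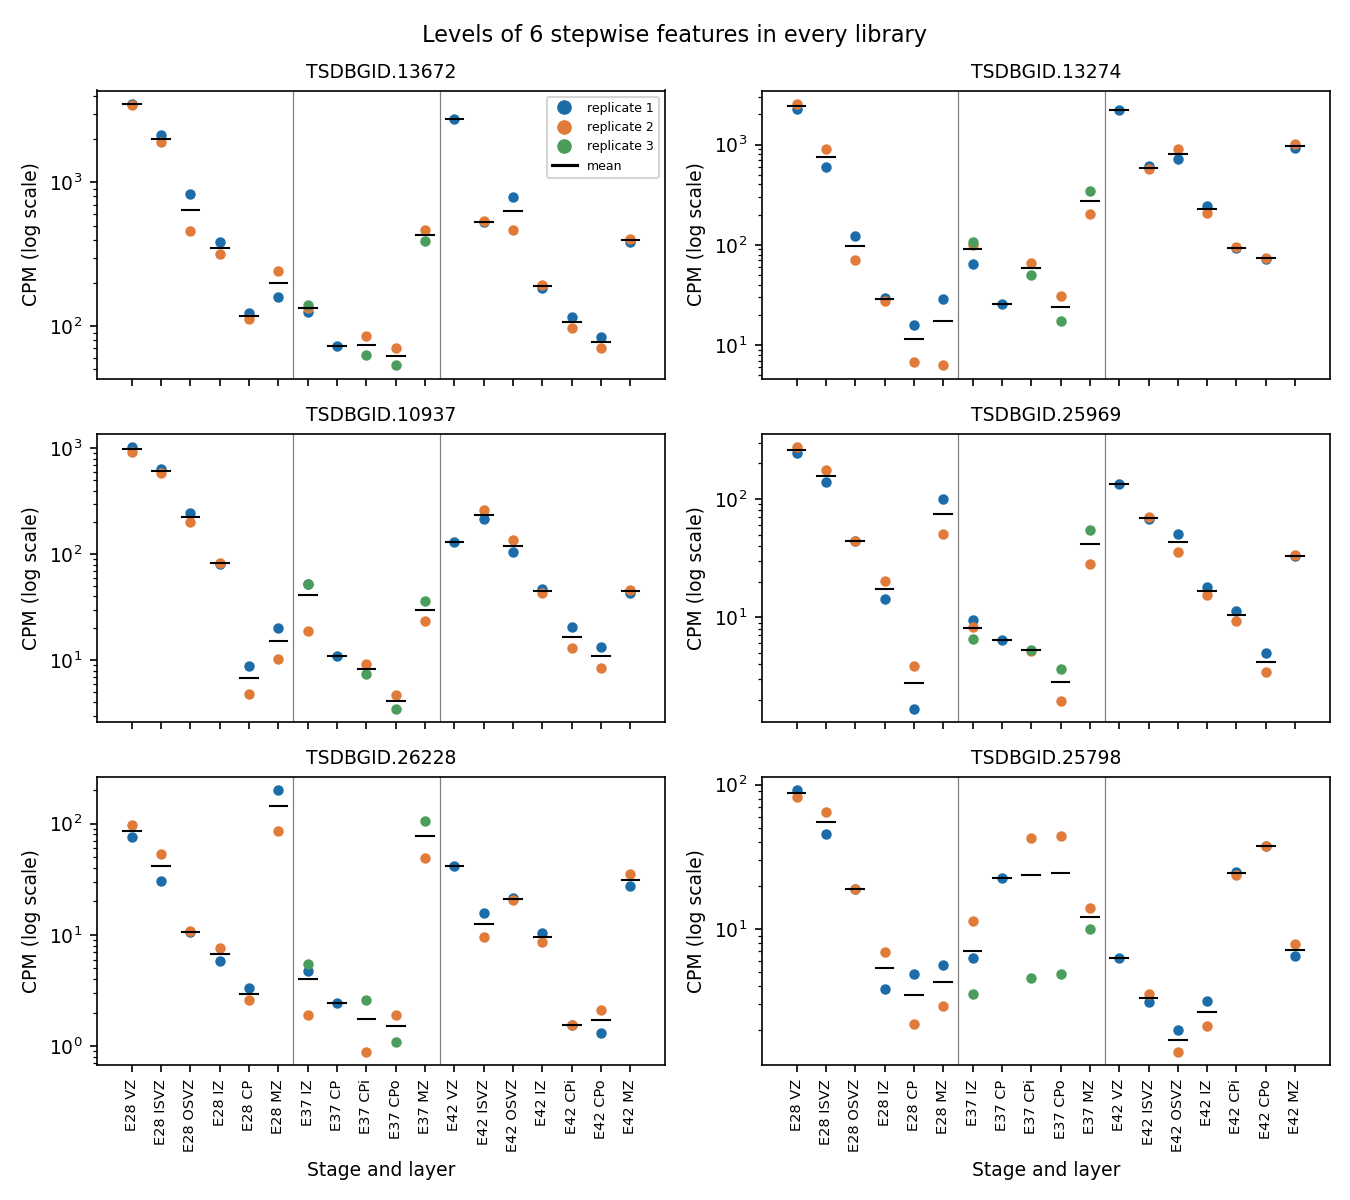
Level of 6 of the features in every library (CPM, log scale on each vertical axis) by stage and layer, with 1 point per library coloured by replicate number and a line at each group's mean. TSDBGID.13672 and TSDBGID.13274 kept their VZ peak at E42, TSDBGID.10937 was higher in the ISVZ than in the VZ, TSDBGID.25969 decreased at every step, TSDBGID.26228 was also high in the MZ, and TSDBGID.25798 was highest in the CP.

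At E42, which the choice did not use, the ends of the gradient held and its middle did not. The median level of the 158 features was 71.2 CPM in the VZ, 33.7 in the ISVZ, 34.3 in the OSVZ, 14.7 in the IZ and 4.15 in the CP. The VZ mean was above the CP mean in 155 of 158 features (59.7% of the 7989 features with at least 10 CPM in the E28 VZ), and 152 passed the test as higher and 0 as lower (15.5% and 11.1% of all features tested). At an unadjusted p under 0.05, 1 was lower, and by the DESeq2 Wald test 1 was. Their median log2 difference was 4.15, against 0.03 over all features tested. Of the 697 comparison features, 602 (86.4%) passed as higher, with a median of 2.76. Of the 7989, 27.9% passed as higher and 19.8% as lower. All 158 features passed the filter on low counts. With 1 VZ library at E42, the spread of the VZ was taken from the other groups of the fit.

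The step from VZ to ISVZ had a median ratio of 3.19 at E42, compared with 1.98 at E28. The VZ library was above the ISVZ mean in 122 of 158 features (48.3% of the 7989), and 73 passed the test as higher and 0 as lower (5.10% and 3.39% of all features tested). At an unadjusted p under 0.05, 5 were lower, and by the DESeq2 Wald test 2 were. Of the 697 comparison features, 257 (36.9%) were called higher and 7 lower, with a median log2 difference of 0.994. Of the 7989, 13.2% were called higher and 6.17% lower. Among the 158, the ratio of means ranged from 0.271 to 80.9, and the median log2 difference was 1.74 (-0.04 over all features tested). Without replicate 2 of the ISVZ, 43 features were called higher.

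Between the ISVZ and OSVZ the median feature did not decrease. The ISVZ mean was above the OSVZ mean in 67 of 158 features (55.3% of the 7989), and the median ratio was 0.935, compared with 3.08 at E28. The test called 0 features higher in the ISVZ and 2 lower (0.298% and 0.477% of all features tested, and 0.438% and 1.11% of the 7989). The share called lower, 1.27%, was close to that of the 7989 and of the 697 comparison features (1.15%). Among the 158, 8 were higher at an unadjusted p under 0.05 and 1 by the DESeq2 Wald test. In the other direction, 18 were lower at an unadjusted p under 0.05 and 5 were called lower by the DESeq2 Wald test. The 2 features lower in the ISVZ, named after their values were seen, were TSDBGID.14382 and TSDBGID.25923. TSDBGID.14382 stood at 30.4 and 26.4 CPM in the ISVZ and 73.7 and 101 in the OSVZ, where both OSVZ libraries were above both ISVZ libraries and above the VZ library (43.4). The log2 difference of ISVZ and OSVZ was -1.68 ± 0.37 (SE, adjusted p = 0.0234). For TSDBGID.25923 it was -1.32 ± 0.33 (SE, adjusted p = 0.049), a call that was lost with the replicate number as a block (adjusted p = 0.0511) and with the size factors of DESeq2 (adjusted p = 0.0547). Both calls were lost without either ISVZ library (adjusted p = 0.205 and 0.314 without replicates 1 and 2 for TSDBGID.14382, and 0.0817 and 0.706 for TSDBGID.25923) and without replicate 1 of the OSVZ (adjusted p = 0.0799 and 0.427). That of TSDBGID.14382 was also lost without replicate 2 of the OSVZ (adjusted p = 0.158).

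The outer steps held at E42. The OSVZ mean was above the IZ mean in 151 of 158 features (60.7% of the 7989), and in 140 both OSVZ libraries were above both IZ libraries (39.8% of the 7989). Of the 697 comparison features, 251 (36.0%) were called higher and 6 lower, with a median log2 difference of 0.904. Of the 7989, 11.5% were called higher and 6.53% lower. The median of the 158 was 1.28, against 0.05 over all features tested. At an unadjusted p under 0.05, 1 of the 158 was lower, and 1 by the DESeq2 Wald test. The test called 67 of the 158 (42.4%) higher and 0 lower (3.85% and 5.40% of all features tested). This count ranged from 35 without either IZ library and 39 without replicate 2 of the OSVZ to 104 in a fit of the 2 groups alone. The IZ mean was above the CP mean in 152 features (58.0% of the 7989). Of the 158, 116 were called higher and 3 lower (6.66% and 5.21% of all features tested). The median log2 difference was 1.73, against 0.12 over all features tested. Of the 697 comparison features, 368 (52.8%) were called higher and 11 lower, with a median of 1.03. Of the 7989, 12.2% were called higher and 14.3% lower.

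**Figure D3:**
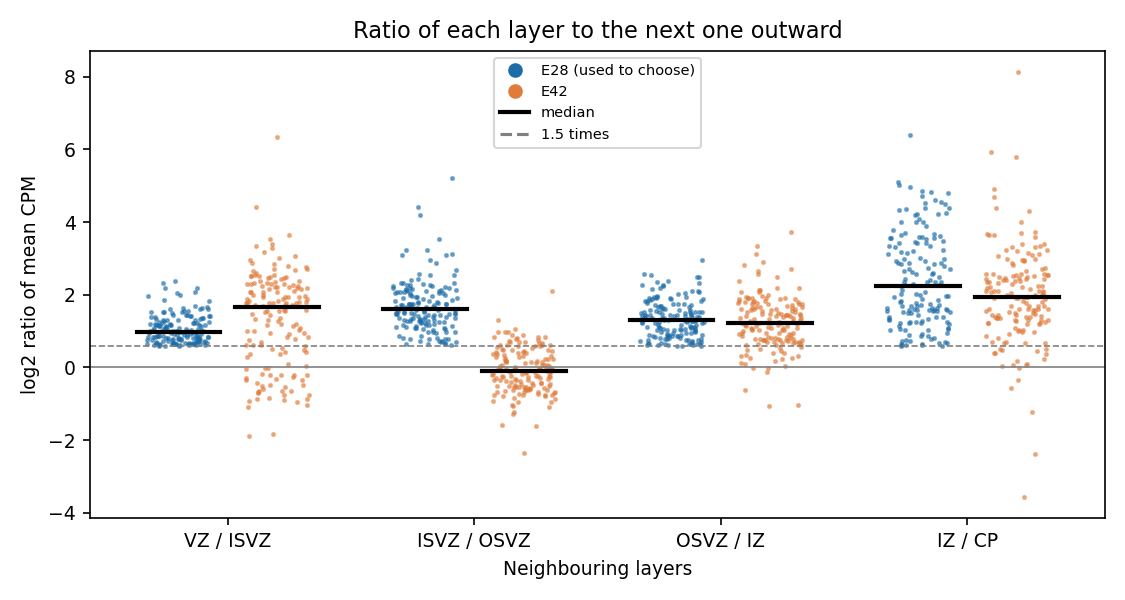
Log2 ratio of the mean CPM of each layer to that of the next layer outward for the 158 features at E28, which chose them, and at E42, with 1 point per feature, a black line at the median, and a dashed line at 1.5 times. A ratio with a mean of 0 on either side is left out (1 feature at the E28 step from IZ to CP, and 1 at each E42 step that involves the OSVZ). At E42 the ratio of ISVZ to OSVZ centred on 0.935, and that of VZ to ISVZ spread from 0.271 to 80.9.

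The whole order of the 5 layers was kept at E42 by 27 features, or 17.1% (6.76% of the 7989), and 3 decreased by 1.5 times at each step (0.125%). With the ISVZ and OSVZ allowed in either order, 100 features (63.3%) decreased from VZ to the subventricular layers to IZ to CP, against 15.6% of the 7989. Without the replicate 2 libraries of the layers outside the VZ, 43 features kept the whole order, and without those of replicate 1, 26. The 3 with the steeper order were TSDBGID.18827, TSDBGID.9494 and TSDBGID.25969. TSDBGID.25969 stood at 134 CPM in the E42 VZ, 68.1 and 70.9 in the ISVZ and 50.8 and 35.8 in the OSVZ. The IZ held 18.0 and 15.3, the CPi 11.4 and 9.34 and the CPo 4.94 and 3.46. Neighbouring layers did not overlap, and the VZ exceeded the CP by 4.17 ± 0.34 (SE) on the log2 scale, given without a test because this feature and the other 5 named here were chosen for an even fall at E42. TSDBGID.18827 and TSDBGID.9494 were far lower, at 23.0 and 16.0 CPM in the E42 VZ. TSDBGID.21365, TSDBGID.9386 and TSDBGID.8504 also decreased at every step, from 20.6, 21.5 and 230.2 CPM in the VZ to CP means of 2.00, 0.888 and 19.3. Their VZ exceeded the CP by 3.20 ± 0.40 (SE), 4.49 ± 0.77 (SE) and 3.75 ± 0.43 (SE) on the log2 scale. In TSDBGID.8504 the CP was split, with 9.47 and 5.38 CPM in the CPi and 34.1 and 28.4 in the CPo.

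Across the E42 layers, 118 of the 158 features were highest in the VZ, 34 in the ISVZ, 2 in the OSVZ, 3 in the MZ and 1 in the CP. Of the 2 highest in the OSVZ, TSDBGID.14382 is described above and TSDBGID.18198 stood at 12.1 and 16.2 CPM there against 13.3 in the VZ and 14.0 and 13.6 in the ISVZ, inside the range of the OSVZ. The 3 highest in the MZ, named like TSDBGID.18198 after their values were seen, were TSDBGID.9779, TSDBGID.12215 and TSDBGID.12440. TSDBGID.9779 stood at 13.3 and 30.9 CPM in the E28 VZ and 1.19 and 1.15 in the E28 MZ, but at 229 and 224 in the E42 MZ, 148 in the VZ, 73.4 and 53.5 in the OSVZ, 4.94 and 3.96 in the CPi and 4.28 and 4.01 in the CPo. Both of its MZ libraries lay above every other E42 library. In TSDBGID.12215, the MZ libraries overlapped those of the OSVZ. TSDBGID.12440 lay between 3.15 and 6.90 CPM in the E42 libraries. Its highest library was replicate 1 of the CPo, and it was highest in the MZ only with the CPi and CPo averaged.

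The E42 ratio of VZ to ISVZ was cut at 1 into a large and a small set. They are described without a test because the split was made after the values were seen. The cut is a line through a range from 0.271 to 80.9, not a border between separate classes. For this step the test above called 73 features higher in the VZ and 0 lower, and 112 had a ratio of at least 1.5. The same E42 VZ library set the split and enters the VZ ratios below, so the ratios of the sets are in part fixed by it. In the 122 features with more in the E42 VZ than in the ISVZ, the median ratio of the E42 to the E28 VZ mean was 0.966, with a range from 0.0719 to 25.7. The VZ level was below that of E28 in 62 of them, under 0.5 times in 25 and over 2 times in 27, so it was not kept throughout this set. The OSVZ level was 2.17 times that of E28 in the median. In 89 of them the OSVZ mean was above the ISVZ mean. In the 36 features with at least as much in the ISVZ, the VZ level was 0.173 times that of E28 in the median, and between 0.115 and 0.663 times. Of these, 2 had an OSVZ mean above the ISVZ mean. In the E28 VZ, the sets had medians of 116 and 158 CPM. The E42 VZ values of both sets rest on 1 library.

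**Figure D4:**
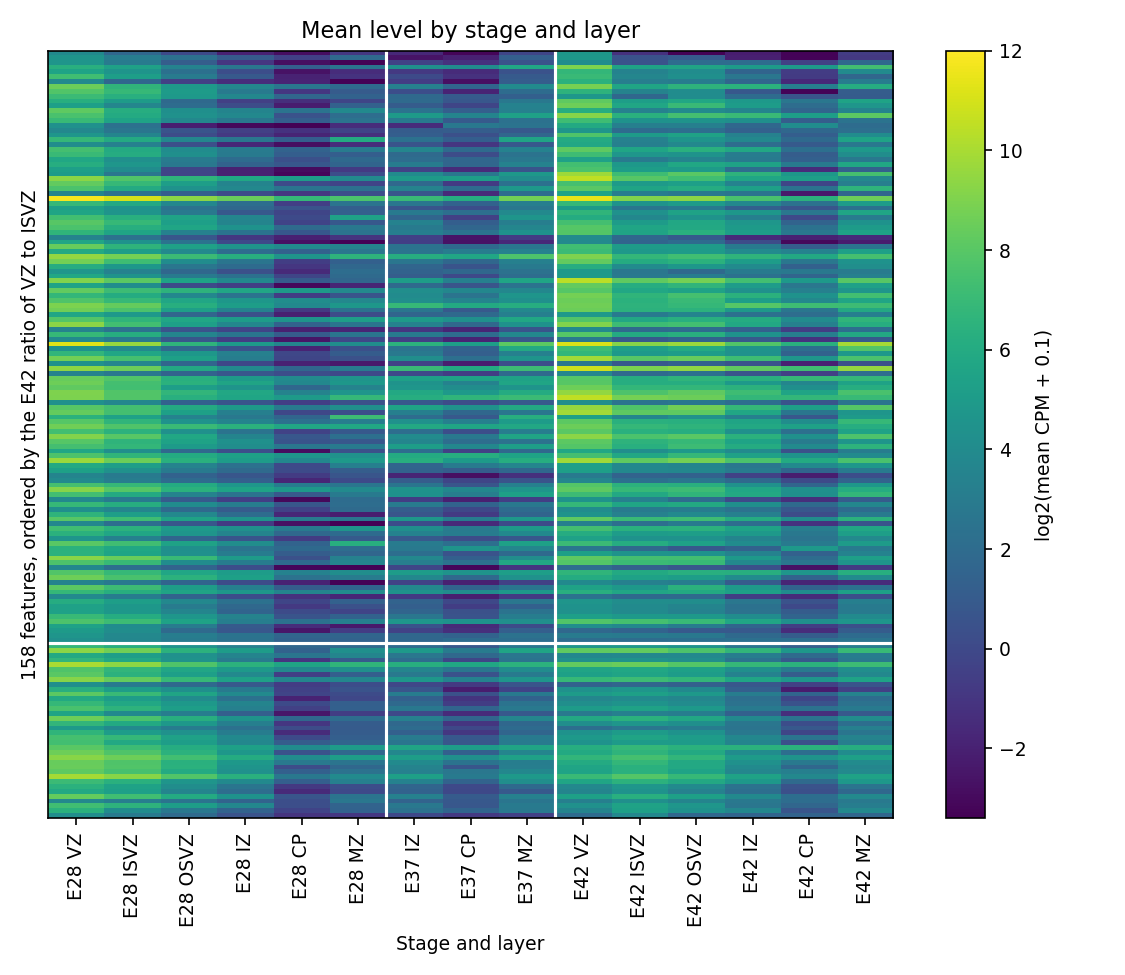
Mean level of the 158 features (rows) in each stage and layer (columns), as log2(mean CPM + 0.1) in colour, with the CP of E37 and E42 as the mean of its parts. Rows are ordered by the E42 ratio of VZ to ISVZ, and the horizontal white line separates the 122 features with more in the E42 VZ from the 36 others, whose E42 VZ column is darker than their E28 VZ column.

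The features with the lowest E42 ratio of VZ to CP, among those with at least 10 CPM in the CP, were chosen by their E42 values. Their differences that use the E42 CP are therefore descriptions of that choice, and an adjusted p beside one only places it among all features tested. TSDBGID.25798 was highest in the CP instead: it went from 92.2 and 82.1 CPM in the E28 VZ to 4.84 and 2.18 in the CP, but at E42 it stood at 6.26 in the VZ, 3.14 and 2.12 in the IZ, 24.9 and 23.7 in the CPi and 37.5 and 37.7 in the CPo. Every E42 CPi and CPo library was above every other E42 library. The IZ was lower than the CP, with a difference of -3.74 ± 0.89 (SE, adjusted p = 0.00885) on the log2 scale, a call that was lost without either IZ library (adjusted p = 0.0873 without replicate 1 and 0.115 without replicate 2). The other 2 features called lower in the E42 IZ than in the CP, named after their values were seen, were TSDBGID.1761 and TSDBGID.13453, which were also the 2 called lower at E37. TSDBGID.13453 was listed at 0 in both E28 CP libraries, but stood at 0.297, 0.528 and 0 CPM in the E37 IZ and 8.34, 1.49, 4.98, 5.48 and 13.1 in the CP, CPi and CPo. The E42 IZ held 4.18 and 2.27, the CPi 5.72 and 3.22 and the CPo 33.5 and 25.0. Its IZ was lower, with a difference of -4.57 ± 0.69 (SE, adjusted p = 0.000307) at E37, where no IZ library reached a CP library, and of -2.05 ± 0.64 (SE, adjusted p = 0.04) at E42, where the groups overlapped. The E42 call was lost without any 1 of 5 libraries (adjusted p between 0.0565, without replicate 2 of the CPo, and 0.291, without replicate 2 of the IZ). For TSDBGID.1761, whose IZ libraries lay below all CP libraries of their stage at E37 and E42, the difference was -1.46 ± 0.31 (SE, adjusted p = 0.0039) at E37 and -1.37 ± 0.35 (SE, adjusted p = 0.00899) at E42. These calls were lost without replicate 3 of the E37 IZ (adjusted p = 0.0851), and without replicate 2 of the E42 IZ or replicate 1 of the CPo (adjusted p = 0.226 and 0.067).

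Other features of this choice stood higher in the CP at E42 than at E37. Their choice used the E42 CP level, so these changes are given without a test. TSDBGID.16290 stood at 256 and 277 CPM in the E28 VZ and 18.7 and 15.2 in the CP, and at E42 at 73.5 in the VZ, 77.6 and 90.4 in the CPi and 88.2 and 90.7 in the CPo. All 4 CP libraries were above the VZ library. The log2 difference of VZ and CP was -0.41 ± 0.26 (SE). Its CP level at E42 lay above that at E37 (27.0, 35.6, 46.2, 37.0 and 26.6 CPM), with no overlap of the 2 stages. The log2 change of the CPi and CPo, without the undivided E37 CP library (27.0 CPM), was 1.26 ± 0.16 (SE). TSDBGID.4309 stood at 101, 64.7, 38.2, 74.3 and 34.2 CPM in the E37 CP, CPi and CPo. At E42 it stood at 200.2 and 156 in the CPi and 132 and 118 in the CPo. Without the undivided E37 CP library (101 CPM), its log2 change was 1.48 ± 0.25 (SE). Its E42 IZ, at 238 and 244 CPM, was above the ISVZ (110.2 and 77.2) and the OSVZ (141 and 93.8). TSDBGID.19804, one of the features just inside the rule, had an E42 ratio of VZ to CP of 2.05.

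At E37, where the germinal layers were not analysed here, the outermost step could be tested. The IZ mean was above the mean of the CP libraries in 145 of 158 features (62.5% of the 7989), and in 89 all 3 IZ libraries were above all 5 CP, CPi and CPo libraries (12.4%). The test called 75 higher and 2 lower (2.60% and 1.25% of all features tested), with a median log2 difference of 1.18, against 0.03 over all features tested. Of the 697 comparison features, 188 were called higher, with a median of 0.54. Of the 7989, 4.32% were called higher and 3.25% lower. Over all features tested, 67.6% of the calls were higher in the IZ, and 81.5% with the size factors of DESeq2, under which 80 of the 158 features were called higher. The features with more in the ISVZ than in the VZ at E42 had a median E37 difference of 1.67, and the 122 others one of 1.10; this was not tested.

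Between E37 and E42, part of the features rose in the IZ and in the CP. In the IZ, 55 of 158 were called higher at E42 and 0 lower (2.15% and 0.652% of all features tested), with a median log2 change of 1.17, against 0.10 over all features tested. At an unadjusted p under 0.05, 0 were lower, and by the DESeq2 Wald test 0 were. The median level was 6.08 CPM in the E37 IZ and 14.7 in the E42 IZ. TSDBGID.14582, for example, had 18.1, 16.6 and 21.2 CPM in the E37 IZ and 133 and 162 in the E42 IZ, a log2 change of 2.94 ± 0.30 (SE, adjusted p = 2.92e-06). TSDBGID.12085 went from 5.64, 6.51 and 6.23 to 34.3 and 35.2 CPM, a change of 2.46 ± 0.33 (SE, adjusted p = 0.000135). TSDBGID.10296 went from 68.0, 63.8 and 98.0 to 192 and 208 CPM, a change of 1.35 ± 0.22 (SE, adjusted p = 0.00042). In each of these 3 features the stages did not overlap. The count fell to 29 without replicate 1 of the E37 IZ and to 16 without replicate 2 of the E42 IZ. Over all features tested, 76.7% of the calls were higher at E42, and 65.6% with the size factors of DESeq2, under which 52 of the 158 were called higher. Of the 697 comparison features, 166 (23.8%) were called higher and 0 lower in the IZ, with a median of 0.651. Of the 7989, 4.47% were called higher and 1.9% lower.

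In the CP, where the test set the CPi and CPo of E42 against those of E37 and left out the undivided E37 CP library, 47 features were called higher at E42 and 0 lower (3.10% and 1.87% of all features tested), with a median log2 change of 0.72, against 0.08 over all features tested. At an unadjusted p under 0.05, 5 were lower, and 4 were called lower by the DESeq2 Wald test and 3 with the replicate number as a block, while 2 were called lower without replicate 2 of the E37 CPi. TSDBGID.14582 rose here too, from 3.81, 7.51, 5.39, 3.12 and 2.80 CPM in the E37 CP, CPi and CPo to 40.0 and 34.7 in the E42 CPi and 16.4 and 9.97 in the CPo. This was a log2 change of 2.34 ± 0.25 (SE, adjusted p = 6.69e-06), with no overlap of the stages. TSDBGID.15828 rose by 1.98 ± 0.37 (SE, adjusted p = 0.00388) and TSDBGID.10296, whose stages overlapped, by 1.01 ± 0.17 (SE, adjusted p = 0.000579). The count of higher features fell to 29 without replicate 3 of the E37 CPi, of the E37 CPo or replicate 1 of the E42 CPi, and to 26 without replicate 1 of the E42 CPo. Of the 697 comparison features, 120 (17.2%) were called higher at E42 and 15 lower, with a median of 0.311. Of the 7989, 5.48% were called higher and 4.49% lower. Within the CP, the CPi mean was above the CPo mean in 119 of 158 features at E42 and in 115 at E37 (41.1% and 54.5% of the 7989), which was not tested.

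The difference of IZ and CP itself changed between E37 and E42 in 1 feature by the test of the interaction (0.0298% of all features tested changed toward the IZ and 0.0112% toward the CP), and in 5 with the replicate number as a block. This was TSDBGID.22894, named after its values were seen. It stood at 22.7, 29.1 and 24.6 CPM in the E37 IZ against 11.2, 22.3, 18.6, 17.3 and 20.3 in the CP, CPi and CPo. At E42 it stood at 105 and 73.4 in the IZ against 23.8 and 14.6 in the CPi and 22.0 and 14.8 in the CPo. The IZ exceeded the CP by 0.34 ± 0.19 (SE, adjusted p = 0.391) at E37 and by 2.02 ± 0.22 (SE, adjusted p = 4.34e-07) at E42 on the log2 scale. With the undivided E37 CP library left out of the contrast, the change of that difference was 1.82 ± 0.31 (SE, adjusted p = 0.0165). The call was lost when replicate 1 or 3 of the E37 IZ, replicate 2 of the E42 CPi or CPo, or either E42 IZ library was left out, with adjusted p between 0.0588 (without replicate 3 of the E37 IZ) and 0.171 (without replicate 1 of the E42 IZ). Over all features tested, 72.7% of the few calls were toward the IZ, and 62.5% with the size factors of DESeq2.

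Beyond the CP, in the MZ, most of the features were higher again. At E28, where the choice used the CP, the MZ mean was above the CP mean in 131 of 158 features (48.7% of the 7989), above the IZ mean in 38 and above the VZ mean in 1. The median level in the MZ was 3.14 CPM at E28, 8.56 at E37 and 15.3 at E42. The MZ mean exceeded the IZ mean in 116 features at E37 and in 99 at E42. No share of the 7989 was taken for the MZ against the IZ or the VZ, so these counts are not read as a trait of the 158 features. The test against the CP called 121 features higher and 1 lower at E37 (10.3% and 8.42% of all features tested), with a median log2 difference of 2.00, against 0.00 over all features tested. In 115, both MZ libraries were above all 5 CP, CPi and CPo libraries (23.3% of the 7989). Without replicate 3 of the E37 MZ, 77 were called higher. At E42, 129 were called higher and 1 lower (10.4% and 6.91% of all features tested), the median log2 difference was 2.21 (0.13 over all features tested), and in 139 both MZ libraries were above all 4 CPi and CPo libraries (31.6% of the 7989). Of the 697 comparison features, 384 were called higher at E37 and 466 at E42. Of the 7989, 14.8% were called higher and 22.5% lower at E37, and 17.8% and 17.8% at E42.

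Among the features with at least 10 CPM in the E28 MZ, the largest ratio of MZ to CP was that of TSDBGID.26228, the one whose E28 MZ exceeded its VZ. It stood at 201 and 86.6 CPM in the E28 MZ, 75.4 and 96.3 in the VZ and 3.32 and 2.58 in the CP, with overlapping values of MZ and VZ. In the MZ of E37 it stood at 48.9 and 105 CPM and in that of E42 at 27.5 and 35.3, above all CP, CPi and CPo libraries of the same stage. The log2 difference was 5.32 ± 0.39 (SE, adjusted p = 5.12e-09) at E37 and 4.18 ± 0.41 (SE, adjusted p = 2.01e-07) at E42. TSDBGID.24623 had 63.1 and 20.6 CPM in the E28 MZ and 1.27 and 0.640 in the CP, and the MZ exceeded the CP by 5.24 ± 0.44 (SE, adjusted p = 5.12e-08) at E37 and 3.18 ± 0.45 (SE, adjusted p = 2.74e-05) at E42. TSDBGID.25923 had 76.3 and 55.3 CPM in the E28 MZ and 3.12 and 1.36 in the CP, with differences of 4.42 ± 0.26 (SE, adjusted p = 2.06e-12) and 3.64 ± 0.27 (SE, adjusted p = 3e-10) at the later stages. For TSDBGID.25969, which kept its gradient at E42, they were 3.15 ± 0.28 (SE, adjusted p = 2.95e-08) at E37 and 2.24 ± 0.29 (SE) at E42. The E42 value is given without a test, because this feature was also chosen for its even fall to the E42 CP. The 2 most abundant features were higher in the MZ than in the CP as well. At E42, TSDBGID.13672 stood at 387 and 405 CPM there and exceeded the CP by 2.04 ± 0.21 (SE, adjusted p = 7.32e-08). TSDBGID.13274 stood at 926 and 1021, above both of its OSVZ libraries, and exceeded the CP by 3.47 ± 0.41 (SE, adjusted p = 7.1e-06).

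The 1 feature called lower in the MZ than in the CP was TSDBGID.6431, at both stages, named after its values were seen. It stood at 16.8 and 18.6 CPM in the E37 MZ against 40.8, 25.6, 42.3, 34.0 and 48.0 in the CP, CPi and CPo. The E42 MZ held 18.3 and 9.70 against 40.0 and 17.4 in the CPi and 61.0 and 38.0 in the CPo, while the E42 VZ held 1449. The MZ libraries lay below all CP libraries at E37 and overlapped the CPi at E42. The log2 difference was -1.23 ± 0.42 (SE, adjusted p = 0.0478) at E37, lost without any 1 of 5 libraries (adjusted p between 0.0516, without replicate 2 of the CPo, and 0.249, without replicate 3 of the MZ). It was -1.52 ± 0.43 (SE, adjusted p = 0.0195) at E42, lost without replicate 1 of the CPi, replicate 1 of the CPo or replicate 2 of the MZ (adjusted p = 0.0767, 0.0608 and 0.19).

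Of the features outside the TSDBGID class, 7 met the same rule at E28, namely LINC-HOPX-1, LINC-SOX1-1, LINC-POU3F3-4, LINC-DMRTA2-1, CCNB1-AS-1, NEUROG1-AS-1 and ELP4-AS-3. Some of these names hold those of known genes. HOPX is expressed in radial glia and marks outer radial glia late in the human cortex, but not at every stage or in every species. SOX1 is a transcription factor of neural progenitors, NEUROG1 is a proneural factor, and CCNB1 encodes the mitotic cyclin B1. The strand of counting is not stated, so for an -AS- feature reads from the gene on the other strand cannot be told apart. LINC-HOPX-1 stood at 27.5 and 18.6 CPM in the E28 VZ, 13.8 and 7.80 in the ISVZ, 3.02 and 1.52 in the OSVZ, 1.24 and 0.213 in the IZ and 0.451 and 0.0768 in the CP. At E42, it stood at 46.6 CPM in the VZ, 12.7 and 8.31 in the ISVZ and 15.2 and 9.30 in the OSVZ. The log2 difference of VZ and ISVZ, 2.22 (adjusted p = 0.2), did not pass the test. The VZ exceeded the CP by a log2 difference of 6.90 (adjusted p = 1.62e-06) and the MZ the CP by one of 3.84 (adjusted p = 0.000779). CCNB1-AS-1 stood at 61.1 and 80.9 CPM in the E28 VZ and 22.4 and 23.7 in the ISVZ. At E42 it stood at 6.48 in the VZ and 7.02 and 7.74 in the ISVZ, whose log2 difference of -0.13 (adjusted p = 0.948) did not pass the test. Its E42 VZ exceeded the CP by 3.60 (adjusted p = 4.64e-09), and that of LINC-SOX1-1, with means decreasing at every E42 step from 15.0 through 8.87, 6.32 and 2.75 to 0.384 CPM, by 5.23 (adjusted p = 9.88e-10). NEUROG1-AS-1 stood at 29.3 CPM in the E28 VZ and 6.60 in the E42 VZ.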

How the data were processed

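RNA of laser-microdissected layers of the fetal tree shrew cortex was sequenced, and the count tables of 36 labelled libraries were read. The authors aligned reads with HISAT and obtained counts by HTSeq, using annotation TS_3.0. The deposited values are whole-number counts per feature, not normalized. The members and lists were chosen with earlier results of these data known.

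CPM was the count over all counts on features of the library. Features were filtered with filterByExpr (minimum count 10), which left 26858, and 35 libraries in 18 groups were fitted with edgeR 4.0.16 in R 4.3.3 (TMM factors 0.8811 to 1.131, robust quasi-likelihood, 17 residual degrees of freedom). In contrasts with the CP, its parts were averaged at E42, and the 5 libraries of CP, CPi and CPo entered at E37. The undivided CP library was left out of contrasts between E42 and E37. Benjamini-Hochberg adjustment ran over all features, at 0.05. CPi and CPo of one number may share a hemisphere, and although the study describes its replicates as biological, the labels tie no library to a fetus or litter, so p-values measure the spread between these libraries. The method was tested on simulated data: of changes of log2 2, it found 50.5% for the E42 VZ against ISVZ, 64.5% for the ISVZ against OSVZ and 84% for the E37 IZ against CP. False calls were 3 of 104, 2 of 131 and 8 of 176. The simulated libraries were drawn independently from a single mean profile, with 200 of the 26858 features changed. Correlation between libraries of the same number was left out, so these rates need not hold for the real data.

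The deviations of libraries with the same number from their group means were correlated for each pair of layers. The correlation was above 0.1 in 15 of 15 pairs at E28, 6 of 6 at E37 and 10 of 15 at E42, and the 5 others all involved the OSVZ. By these values the number pairs libraries at E28 and E37, and at E42 only outside the OSVZ. This reading comes from the counts, not from the labels. The main fit held no term for the replicate number at any stage. The fit with the replicate number as a block held one for every stage, E42 included.

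Named features were the 8 highest in the E28 VZ, the 6 with the largest ratio of VZ to CP at E28 (at least 3 counts in each CP library), the 6 with the most even fall at E42 and at least 10 CPM in the VZ, the 6 with the lowest E42 ratio of VZ to CP and at least 10 CPM in the CP, the 4 nearest the rule's limit on each side, and the 4 with the largest E28 ratio of MZ to CP and at least 10 CPM in the MZ. The alternatives were the DESeq2 1.42.0 Wald test, its size factors, no filter, fits of fewer libraries, a replicate block, an added limit of 1 on the log2 fold change, other limits of the rule, other scalings of CPM, the repeated table kept as labelled, and single libraries left out. Figures were drawn with matplotlib 3.10.9 in Python 3.11.15.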

Additional observations from a re-analysis of the deposited data

Results flagged for a closer look

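For TSDBGID.22894, the difference of IZ and CP was larger at E42 than at E37 by 1.82 on the log2 scale, the one feature of the 158 for which the test of the change itself passed. The IZ was above the CP at both stages, but at E37 that difference did not pass the test. The call of the change was lost when any of several single libraries was left out. By the DESeq2 Wald test, 6 of the 158 features were called.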

How the results depend on the processing

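With a step of 1.3 times in place of 1.5 times, the rule held for 300 features, and with 2 times for 42; from 1 replicate alone, or without replicate 2 of the E28 VZ, it held for 127 to 171. With the repeated table counted as a second E42 VZ library, 58 features kept the whole order at E42 in place of 27. That table equals replicate 2 of the E28 VZ, whose values chose the features, so the 58 is no measure of the order at E42. From 1 replicate of the other layers, 26 to 43 features kept it. Of the counts of calls, that of features higher in the E42 ISVZ than in the OSVZ went from 0 to 1 under DESeq2 and without the filter and to 2 with only those groups in the fit. That higher in the E42 OSVZ than in the IZ went from 67 to 104 with only those groups. That lower in the CP at E42 than at E37 went from 0 to 4 under DESeq2, and to 1 without the filter, with only E37 and E42 libraries, and with only those groups. The count for the change of the difference of IZ and CP went from 1 to 6 under DESeq2, 13 without the filter and 4 with only E37 and E42 libraries. The causes were not tested.

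With the replicate number as a block, the counts higher were 91 for the E42 VZ against ISVZ, 1 for the ISVZ against OSVZ, 96 for the OSVZ against IZ, 120 for the IZ against CP, 152 for the VZ against CP, 94 for the E37 IZ against CP, 121 and 134 for the MZ against CP at E37 and E42, and 82 and 45 for E42 against E37 in the IZ and CP; 3 features were lower in the CP and 5 changed in the difference of IZ and CP. The E42 call of TSDBGID.25923 between ISVZ and OSVZ was lost under the block (adjusted p = 0.0511, edgeR) and with the size factors of DESeq2 (adjusted p = 0.0547).

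Leaving out 1 library at a time gave 43 to 49 features higher for the E42 VZ against ISVZ, 0 for the ISVZ against OSVZ, 35 to 46 for the OSVZ against IZ, 84 to 114 for the IZ against CP, 148 to 150 for the VZ against CP, 61 to 78 for the E37 IZ against CP, and 77 to 123 and 113 to 126 for the MZ against CP at E37 and E42. From E37 to E42 it gave 16 to 54 higher in the IZ, 26 to 45 in the CP, 0 lower in the IZ and 0 to 2 lower in the CP, and 0 to 3 for the change of the difference of IZ and CP. Where a group was left with 1 library, that library was assumed to vary like the other groups, as was the E42 VZ throughout. No named log2 fold change took the other sign under an alternative tried, 445 of those values kept their side of the threshold, 34 passed in the main analysis only and 2 in the alternative only.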
